A study of Mus musculus with 12 samples.

Results

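In chromatin of mouse small-intestinal villi, 8118 H3K4me1 peaks on the autosomes lay away from coding start sites and had no counterpart in crypts. They were chosen by the H3K4me1 peak calls themselves: a peak of the villi list was taken when no crypts H3K4me1 peak overlapped it by 1 bp and when it lay more than 1 kb from every start site of a protein-coding transcript (GENCODE M21 on GRCm38, the assembly also called mm10). They are 20.6% of the 39402 distal villi H3K4me1 peaks on autosomes, and the whole villi list holds 55341 peaks. The other 31284 distal villi peaks overlapped a crypts peak and are called shared peaks here. In the crypts list, 6871 distal autosomal peaks had no villi counterpart, and these crypts-only peaks are the mirror image of the villi-only set. The study sequenced ChIP-Rx libraries (ChIP-seq with added Drosophila chromatin as a reference) of 5 H3 modifications from villi, scraped off the opened small intestine, and from crypts, released afterwards with EDTA. The labels describe both compartments as mouse intestine and name no genotype, strain, age or treatment. Each mark was profiled in a single library of villi and a single one of crypts, so that differences between the compartments rest on 1 library each and were not tested.

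H3K4me1 marks enhancers, both active and primed, whereas H3K4me3 marks promoters and H3K27me3 is the mark of Polycomb repression. H3K9me2 and H3K9me3 belong to heterochromatin. Villi carry mostly absorptive enterocytes, which leave the cell cycle as they move out of the crypts, and crypts hold the stem cells, their dividing progeny and Paneth cells. In the enterocyte lineage the nuclear receptors HNF4A and HNF4G and the factors CDX2 and GATA4 bind many enhancers. AP-1, a dimer of FOS and JUN family proteins, binds enhancers in many epithelial and immune cells.

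The sequences of 5 villi-only peaks are shown first, to make the regions concrete. They are among the highest-scoring peaks whose central 200 bp hold a motif of an intestinal factor, on either strand. The letters searched were CAAAGTCCA for the HNF4 specific motif, CAAAGGTCA for DR1, a site of nuclear receptor dimers including HNF4, AGATAA for GATA factors and CCATAAA for CDX. Each sequence is the plus strand of GRCm38, 5′ to 3′, named by the nearest coding gene, with the motif or its reverse complement in capitals.
Tbc1d1, chr5:64197661-64197860: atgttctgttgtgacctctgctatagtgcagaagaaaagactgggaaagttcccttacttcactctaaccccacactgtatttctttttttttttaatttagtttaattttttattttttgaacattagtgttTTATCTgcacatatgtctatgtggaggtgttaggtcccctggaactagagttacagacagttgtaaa
Gsdme, chr6:50240506-50240705: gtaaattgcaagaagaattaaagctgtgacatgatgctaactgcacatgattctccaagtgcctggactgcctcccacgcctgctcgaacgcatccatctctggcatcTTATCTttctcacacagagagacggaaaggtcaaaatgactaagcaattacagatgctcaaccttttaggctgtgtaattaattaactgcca
Smad6, chr9:64062646-64062845: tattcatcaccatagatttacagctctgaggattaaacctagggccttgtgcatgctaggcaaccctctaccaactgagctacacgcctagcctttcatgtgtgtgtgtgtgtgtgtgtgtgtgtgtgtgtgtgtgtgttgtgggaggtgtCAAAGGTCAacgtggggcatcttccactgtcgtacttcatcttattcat
Ctcfl, chr2:173124378-173124577: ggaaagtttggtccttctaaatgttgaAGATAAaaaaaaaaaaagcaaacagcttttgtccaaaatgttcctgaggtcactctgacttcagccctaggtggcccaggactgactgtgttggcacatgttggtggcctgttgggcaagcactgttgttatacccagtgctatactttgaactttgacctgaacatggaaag
Trim42, chr9:97308111-97308310: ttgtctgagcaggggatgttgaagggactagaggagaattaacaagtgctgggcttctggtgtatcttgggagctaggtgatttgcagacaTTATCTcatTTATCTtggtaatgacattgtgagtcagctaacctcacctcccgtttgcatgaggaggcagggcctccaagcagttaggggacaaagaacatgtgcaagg
The peak at Tbc1d1, a regulator of glucose transporter traffic, had a score of 36.3, lay 30.4 kb from the start site in an intron and had a GATA match from base 134 of the window. The peak at Gsdme scored 35.2 with a GATA match from base 109. The DR1 match near Smad6, an inhibitor of BMP signalling, began at base 152, in a peak that scored 31.5. The peaks nearest to Ctcfl and Trim42, both with a score of 29.7, held GATA matches, 1 and 2 in number. The score is the value in the deposited list, taken as −log10 of the peak caller's p-value.

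For absorptive genes, which the lists below describe, 3 villi-only peaks with a DR1 match in the same window are shown. They are the highest-scoring ones of the absorptive lists with an HNF4 specific or DR1 match.
Slc2a5, chr4:150128744-150128943: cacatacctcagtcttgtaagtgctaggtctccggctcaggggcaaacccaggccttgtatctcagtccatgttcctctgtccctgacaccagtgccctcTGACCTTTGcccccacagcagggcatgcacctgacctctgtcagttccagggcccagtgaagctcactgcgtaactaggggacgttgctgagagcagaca
Abca1, chr4:53094535-53094734: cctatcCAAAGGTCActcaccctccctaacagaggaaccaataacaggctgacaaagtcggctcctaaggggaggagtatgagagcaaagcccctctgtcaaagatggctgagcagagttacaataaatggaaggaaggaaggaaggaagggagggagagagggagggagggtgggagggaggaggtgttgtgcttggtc
Abcg8, chr17:84663852-84664051: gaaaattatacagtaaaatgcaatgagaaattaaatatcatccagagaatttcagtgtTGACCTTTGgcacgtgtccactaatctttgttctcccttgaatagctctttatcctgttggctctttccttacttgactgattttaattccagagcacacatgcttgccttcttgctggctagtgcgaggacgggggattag
The peak at Slc2a5, the fructose transporter of the brush border, scored 24.5 and lay 9.04 kb from the start site. The peak at Abca1, a cholesterol exporter, scored 12.4, and that near Abcg8, which with Abcg5 pumps sterols back into the lumen, scored 10.0. These 3 were picked after the motif results were known.

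The villi-only peaks were narrow and weakly called, which the rule favours, since a wide peak meets another peak more easily. Their median width was 832 bp (quartiles 593 and 1213 bp), against 1544 bp for shared peaks and 830 bp for crypts-only peaks. Their median score was 12.4, against 19.4 for shared peaks of the same list. Of the tenth of distal villi peaks with the lowest scores, 56.2% were villi-only, and of the tenth with the highest, 0.381% were. The top 50% of the villi list by score held 1080 of the 8118 peaks. Crypts-only and villi-only peaks thus match each other in width, and that makes the crypts-only set the closer comparison for most of what follows. The nearest crypts peak was a median of 4600 bp away. It lay within 1 kb of 1176 villi-only peaks (14.5%) and more than 20 kb from 1254 (15.4%). Just inside the rule, the closest villi-only peak was 9 bp from a crypts peak and 18 were within 100 bp. Just outside it, the smallest overlap of a shared peak was 10 bp and 17 shared peaks overlapped by 100 bp or less. At the limit around start sites, 26 villi-only peaks lay between 1000 and 1100 bp away, and 41 villi-only peaks between 900 and 1000 bp were left out.

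The highest-scoring villi-only peaks lay at genes of varied roles. The peak with the highest score, 42.4, was 3613 bp wide (chr14:70504881-70508493) and overlapped an exon 11695 bp from the nearest start site, that of Bmp1, a protease that processes procollagen. Next came a peak with a score of 41.7 nearest to Wdr45b, an autophagy gene. It was followed by peaks in introns nearest to Bach1, a heme-sensing repressor (37.1), to Ptprj, a receptor tyrosine phosphatase (36.9), to Tbc1d1 (36.3) and to Ttyh2 (36.1). A peak of score 35.3 nearest to Esp38 is described with the other marks. The peaks nearest to Phxr2, Klhl29, Rsad2, an interferon-induced antiviral gene, and Gsdme, a pore-forming gasdermin, shared a score of 35.2. The distance to a crypts peak was short for some of these, 69 bp at Bach1 and 422 bp at Ttyh2. It was 25053 bp at Wdr45b and 16887 bp at Tbc1d1.

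The villi-only peaks lay inside genes more often than the other sets did. Of the 8118, 1200 (14.8%, 95% Wilson interval 14.0 to 15.6%) overlapped an exon, 3814 (47.0%, 45.9 to 48.1%) lay in an intron and 3104 (38.2%, 37.2 to 39.3%) were intergenic. Introns held 39.2% of shared peaks and 40.4% of crypts-only peaks, and exons held 16.1% and 9.26%. Intergenic shares were 44.7% for shared and 50.3% for crypts-only peaks. The median distance to a coding start site was 17987 bp, close to the 18661 bp of shared peaks and shorter than the 24848 bp of crypts-only peaks. Over 100 kb from a start site lay 9.89% of villi-only (9.26 to 10.6%) and 15.8% of crypts-only peaks. The median GC content was 46.7% against 46.2% for shared and 45.3% for crypts-only peaks, and the median soft-masked (repeat) share was 15.5%, 17.1% and 15.9%. Each autosome contributed, and villi-only peaks were between 19.2 and 22.4% of the distal villi peaks on the 19 autosomes. These intervals account for counting alone, and peaks that lie close together may share their signal.

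H3K4me3 was called at fewer villi-only peaks than at either other set. In the villi list, 263 of 8118 overlapped an H3K4me3 peak (3.24%, 2.88 to 3.65%), against 13.2% of all distal villi H3K4me1 peaks. The share was 15.8% of shared peaks (15.4 to 16.2%) and 6.43% of crypts-only peaks (5.88 to 7.04%). In the crypts list it was 2.65% of villi-only peaks (2.32 to 3.02%), against 12.4% of all distal villi peaks, 4687 of 31284 shared peaks and 7.06% of crypts-only peaks (6.48 to 7.69%). The villi-only share of villi H3K4me3 differed from the crypts-only one by -3.19 percentage points (Newcombe interval -3.90 to -2.50), and was the lower on 19 of 19 autosomes. The difference was -1.06 points when villi-only peaks alone were limited to the top 50% of the villi list by score and the crypts-only peaks were left as they were. It was -1.56 when the H3K4me3 peak had to cover 50% of the H3K4me1 peak and -2.12 for peaks over 5 kb from start sites. It was also lower within each of 18 strata of place, distance, score, width, GC content and gap to the other compartment. The size varied: within 5 kb of a peak of the other compartment it was 3.70% of villi-only and 9.17% of crypts-only peaks, and beyond 20 kb it was 4.15% (3.18 to 5.40%) and 4.32% (3.38 to 5.50%), with overlapping intervals. Over 50 kb from a start site it was 2.71% and 2.80%. Most H3K4me3 overlaps at villi-only peaks were present in both compartments, 197 against 66 in villi alone and 18 in crypts alone. At crypts-only peaks, 414 were in both, 28 in villi alone and 71 in crypts alone.

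H3K27me3 was rare at villi-only peaks and yet called at more of them than in the other sets. Of the 8118, 359 overlapped a villi H3K27me3 peak (4.42%, 4.00 to 4.89%), against 3.59% of all distal villi H3K4me1 peaks, 3.37% of shared (3.18 to 3.58%) and 2.50% of crypts-only peaks (2.16 to 2.90%). In the crypts H3K27me3 list the shares were 3.42% (3.05 to 3.84%), 2.57% and 1.53% (1.26 to 1.85%), and 2.74% for all distal villi peaks. The villi H3K27me3 list is the longer of the pair, 13797 peaks against 7611, so the sets were compared within 1 list at a time. Against crypts-only peaks the villi-only share of villi H3K27me3 was higher on 18 of 19 autosomes and against shared peaks on 12 of 19. The excess over crypts-only peaks was found at GC-rich peaks. Among peaks with over 50% GC, 13.0% of villi-only (11.7 to 14.5%), 11.3% of shared and 6.68% of crypts-only peaks (5.45 to 8.17%) overlapped villi H3K27me3. Under 45% GC the direction against crypts-only peaks turned, with 0.681% (0.442 to 1.05%) and 1.13% (0.823 to 1.56%), and it also turned between 45 and 50% GC, with 1.54% and 2.08%. Above 2000 bp in width the shares were 1.69% and 1.71%. Among exonic peaks it was 9.75% of villi-only and 2.99% of crypts-only, and among intronic ones 1.86% and 1.84%. Against shared peaks of like width the difference was small, 5.50% and 5.34% under 1000 bp, it was reversed from 1000 to 2000 bp, 2.80% and 4.13%, and above that it was 1.69% and 1.18%. Across the strata the villi-only share was higher than the shared one in 14 of 15 and higher than the crypts-only one in 15 of 18. Both compartments had H3K27me3 at 257 villi-only peaks (3.17%), villi alone at 102 and crypts alone at 21. The shares of villi alone and crypts alone, 1.26% and 0.259%, were close to the 1.07% and 0.265% of shared peaks and the 1.19% and 0.218% of crypts-only peaks. The 359 peaks had a median GC content of 56.9% and a median CpG observed-over-expected ratio of 0.546, against 46.5% and 0.181 for the 7528 villi-only peaks with neither villi H3K27me3 nor villi H3K4me3. An exon was overlapped by 32.6% of the 359 peaks and by 13.7% of those 7528. Among the highest-scoring of them, after a peak nearest to Mreg with a score of 33.0, were peaks nearest to Hlx, a homeobox gene (28.6), to Prdm12, a regulator of sensory neurons (24.5), and to Heyl, a Notch target (23.5). Those of Hlx, Prdm12 and Heyl overlapped exons and had H3K27me3 in both compartments and H3K4me3 in villi. These were named after their values were seen. In the plot of mark overlap the shares are set side by side.

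**Figure D1:**
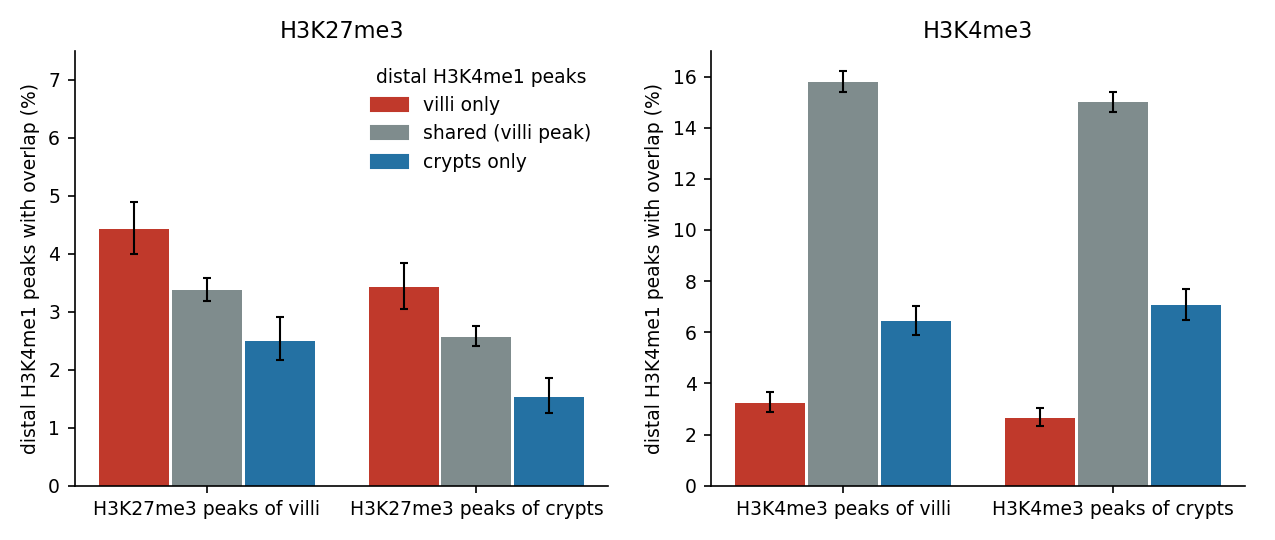
Share of distal H3K4me1 peaks (%, y axis) that overlap a called H3K27me3 peak (left) or H3K4me3 peak (right) of villi or of crypts, for villi-only (red), shared (grey) and crypts-only peaks (blue). Bars are shares and lines are 95% Wilson intervals for counting error: villi-only peaks have the lowest H3K4me3 shares (3.24 and 2.65%) and the highest H3K27me3 shares (4.42 and 3.42%).

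Few villi-only peaks carried several marks. H3K4me3 and H3K27me3 both overlapped 32 of them in villi (0.394%), against 344 of 31284 shared and 15 crypts-only peaks (0.218%). None of the other 4 marks was called in either compartment at 7468 villi-only peaks (92.0%), against 79.7% of shared peaks and 6183 of 6871 crypts-only peaks. H3K9me3 of villi overlapped 18 villi-only peaks (0.222%, 0.140 to 0.350%), 26 shared (0.0831%, 0.0567 to 0.122%) and 4 crypts-only peaks (0.0582%, 0.0226 to 0.150%). The crypts H3K9me3 list overlapped 21 villi-only peaks (0.259%, 0.169 to 0.395%), 69 shared (0.221%, 0.174 to 0.279%) and 10 crypts-only peaks (0.146%, 0.0791 to 0.268%), with overlapping intervals. No villi-only peak overlapped an H3K9me2 peak of either compartment. The H3K9me2 lists hold 3 peaks in villi and 6 in crypts, so this says little. The peak of score 35.3 nearest to Esp38 (chr17:39843103-39846830) overlapped H3K4me3, H3K27me3 and H3K9me3 peaks of both compartments. Its GC content was 67.8%, the nearest crypts H3K4me1 peak was 959636 bp away, and GENCODE places the rRNA gene CT010467.1 there. Its neighbour at chr17:39847368-39848210, score 11.6, overlapped the same rRNA gene. The shares of H3K27me3 and H3K4me3 in villi were 4.40% and 3.22% without the villi-only peaks at annotated rRNA genes. The part of repeated DNA in these calls was not tested.

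The villi-only peaks had 4976 nearest genes, 24.0% of the 20698 autosomal coding genes, and 20.1% were nearest to a crypts-only peak. A further cut of 3 or more villi-only peaks was met by 704 genes (3.40%) and of 5 or more by 157 genes, which together held 993 of the peaks. The number of peaks at a gene was not adjusted for its length or its neighbours, so the villi-only, shared and crypts-only numbers are given together for each gene. Of the villi-only peaks, 1957 (24.1%) had another within 10 kb, a share for which no comparison was made.

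Maf, which encodes a basic leucine zipper transcription factor, was nearest to the most villi-only peaks. It had 16, with 37 shared and 2 crypts-only peaks. They lay between 46.4 and 519 kb from its start site, 11 upstream and 5 downstream, and 7 of them were within the stretch from 60 to 150 kb upstream. Their scores ran from 10.0 to 26.6, and none overlapped H3K27me3 or H3K4me3 of either compartment. The H3K4me3 peak at the Maf promoter was called in both compartments. The map of the locus shows the villi-only peaks interspersed with shared ones.

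**Figure D2:**
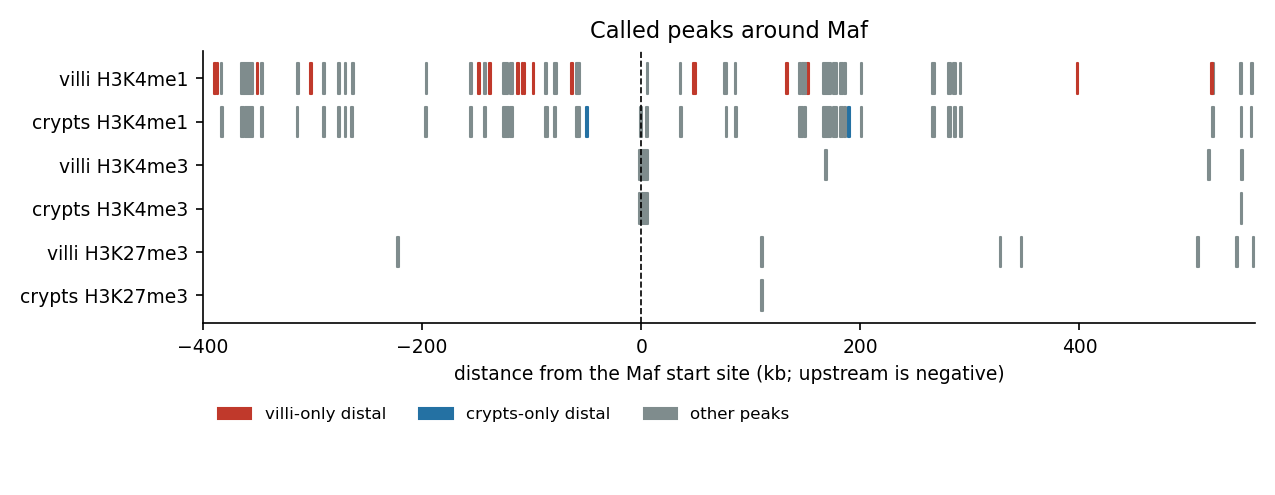
Called peaks around the Maf start site (x axis, distance in kb, upstream negative) of H3K4me1, H3K4me3 and H3K27me3 in villi and crypts (rows). Red marks villi-only and blue crypts-only distal H3K4me1 peaks, grey all other called peaks, and peaks under 1.5 kb are drawn 1.5 kb wide: 16 villi-only peaks lie on both sides of the gene among shared ones, and the promoter H3K4me3 peak is present in both compartments.

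Prkag2, a regulatory subunit of the energy sensor AMPK, had 14 villi-only, 13 shared and no crypts-only peaks. All 14 lay inside the gene (chr5:24862744-25100642), and 6 of them formed a run of 29.8 kb in which neighbours were under 10 kb apart, with 1 shared peak between them. Ptprg, a receptor tyrosine phosphatase, had 12 villi-only, 26 shared and 3 crypts-only peaks, the 12 all inside the gene. With 11 villi-only peaks each followed 7 genes. Klf4, a Krüppel-like factor of differentiated epithelium and goblet cells, had 24 shared and 2 crypts-only peaks beside them. Klf6, of the same family, had 38 and 5. Zmiz1, a transcriptional coactivator, had 31 and 2, and Tle3, a Groucho co-repressor, had 26 and 3. Rybp, a component of Polycomb complexes, had 15 and 3. Med13l, a subunit of the Mediator kinase module, had 38 and 4, and Nckap5 had 11 and 0. Among peaks in the top 50% of the villi list by score, 4 of the 16 at Maf and 0 of the 14 at Prkag2 remained. Each of these 10 genes had promoter H3K4me3 in both compartments and no promoter H3K27me3 in either. These 2 states were found at 58.0% and 82.6% of all autosomal coding genes. For the nearest genes of all villi-only peaks the shares of peaks were 81.2% and 82.7%. Myc, the proliferation factor with the most crypts-only peaks, had 24 of them, 18 shared and 1 villi-only peak. Sox9, a factor of stem and Paneth cells, had 14 crypts-only, 26 shared and 3 villi-only peaks.

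**Figure D3:**
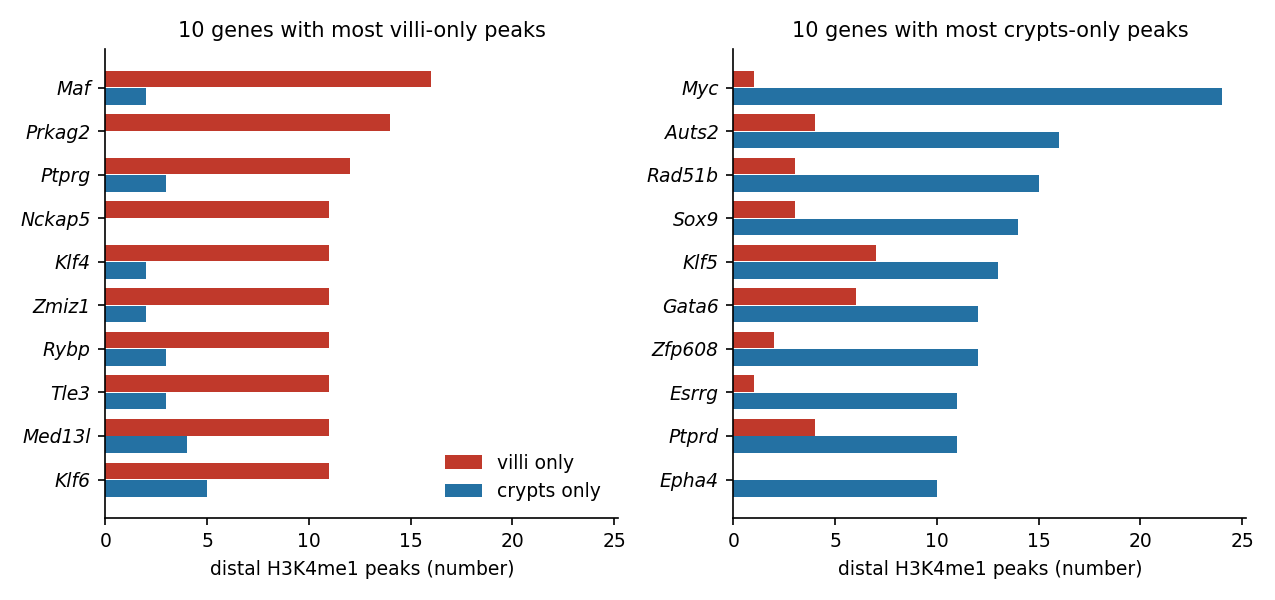
Number of villi-only (red) and crypts-only (blue) distal H3K4me1 peaks (x axis) for the 10 coding genes nearest to the most villi-only peaks (left) and for 10 of those nearest to the most crypts-only peaks (right). Genes were ordered by these same counts: Maf has 16 against 2 and Myc 1 against 24.

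Of all autosomal coding genes, 20.1% had a crypts-only peak. Of the 4976 genes with at least 1 villi-only peak, 3061 had no crypts-only peak. Of the 704 genes with 3 or more villi-only peaks, 302 had no crypts-only peak. Beside Prkag2 and Nckap5 these included Iqgap2, a scaffold of the actin cytoskeleton, with 10 villi-only and 11 shared peaks, Mical3 with 9 and 7, and Myo1d and Myo1e, class I myosins, with 7 each beside 7 and 9 shared. Runs of 5 were found at Myo1d over 27.2 kb, with 3 shared peaks between them, and at Gda, guanine deaminase, over 21.2 kb, with none. At Ubr3, a ubiquitin ligase, 5 villi-only peaks within 12.8 kb were the only distal villi peaks nearest to the gene. At Osbpl3, an oxysterol-binding protein, a run of 5 over 20.1 kb also held no shared peak. These genes were named after their values were seen.

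Genes of absorption were nearest to villi-only peaks more often than coding genes at large. Of 62 genes in the lists of brush border, transporters and lipid absorption, 36 (58.1%) had at least 1, against 24.0% of all autosomal coding genes. Crypts-only peaks were nearest to 19 of the 62 (30.6%), against 20.1%. Of all genes with promoter H3K4me3 in both compartments, as most of the 62 had, 32.0% had a villi-only and 25.7% a crypts-only peak. In the top 50% of the villi list by score, which held 1080 of the 8118 villi-only peaks, 9 of the 62 genes had one. The share of all coding genes at that cut is not given, so the 9 cannot be set against a background. The 62 genes had 85 villi-only, 265 shared and 28 crypts-only peaks. Villi-only peaks were thus 75.2% of their peaks of 1 compartment, against 54.2% over all genes, and 24.3% of their distal villi peaks, against 20.6%. More villi-only than crypts-only peaks were counted at 30 of the 62 genes, and fewer at 4. Over all 20698 coding genes these numbers were 3621 and 2787. Inside the gene itself lay 52 of the 85 peaks. With 3 or more villi-only peaks there were 14 of the 62 genes, against 3.40% of all genes. High gene shares were not particular to absorption: 15 of 23 genes of stem and dividing crypt cells (65.2%) and 16 of 30 intestinal transcription factors (53.3%) also had at least 1 villi-only peak, but there the share with a crypts-only peak was higher still, 73.9% and 70.0%. Enteroendocrine markers moved in the same direction as the absorptive genes. Villi-only peaks were 6 of the 8 peaks of 1 compartment there, a share like the 75.2% of absorptive genes. At leukocyte genes other than those of intraepithelial lymphocytes the share was 57.1% (8 and 6 peaks), near the 54.2% over all genes. Of those 6 crypts-only peaks, 5 were at Kit, although more of these genes had a villi-only than a crypts-only peak (38.5% against 15.4%). The part of enteroendocrine cells and leukocytes in the result was not tested. The lists were chosen with earlier results of these data known.

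Brush border genes had 29 villi-only, 97 shared and 8 crypts-only peaks, and 12 of 21 genes had at least 1 villi-only peak. Mep1b, the β subunit of the metalloprotease meprin, had 7 villi-only, 10 shared and no crypts-only peaks. A run of 21.1 kb held 5 of the 7, with 3 shared peaks between them. The scores of the 7 ran from 10.8 to 21.6. Eps8, which caps and bundles actin in microvilli, had 6, 10 and 1. Mme, neprilysin, had 5, 9 and 2, all 5 inside the gene, from 16.7 to 79.4 kb from its start site. Enpep, glutamyl aminopeptidase, had 3, 11 and 1. The sucrase-isomaltase gene Sis had 1, 9 and 1, and Vil1, villin, had 1, 5 and 1.

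Transporter genes had 34 villi-only, 101 shared and 13 crypts-only peaks, with 13 of 21 genes nearest to at least 1 villi-only peak. Slc15a1, the peptide transporter, had 6 villi-only, 18 shared and no crypts-only peaks. Slc5a1, the sodium-glucose transporter, had 5, 10 and 2. Its 5 villi-only peaks scored 20.6, 17.0, 15.9, 14.3 and 10.0, and the highest 2 of them were intergenic, at chr5:33069193-33071216 and chr5:33085118-33086301. Slc2a2, the basolateral glucose transporter, had 4, 12 and 0, and H3K4me3 peaks of both villi and crypts overlapped 1 of the 4. Slc2a5 had 3, 2 and 1. Slc3a1, the heavy chain of a cystine and basic amino acid transporter, had 3, 7 and 0, and its highest peak scored 25.6. Slc34a2, a phosphate transporter, had 3, 12 and 2. Against the direction of the list, Slc10a2, the bile acid transporter of the ileum, had 2 villi-only and 5 crypts-only peaks.

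The lipid list had 22 villi-only, 67 shared and 7 crypts-only peaks, and 11 of 20 genes had at least 1 villi-only peak. Scarb1, a lipoprotein receptor, had 4 villi-only, 2 shared and 1 crypts-only peak, and the 4 all overlapped H3K27me3 peaks of both compartments. Those were the only peaks of the 85 at absorptive genes with villi H3K27me3. The promoter of Scarb1 had both H3K4me3 and H3K27me3 in both compartments. Slc27a4, a fatty acid transport protein, had 3, 1 and 0, Abcg8 3, 6 and 1, and Cd36, a fatty acid receptor, 3, 2 and 2. Apob, the structural protein of chylomicrons, had 2, 13 and 0. Mttp, which loads lipid on to it, had 0, 4 and 2. Promoter H3K4me3 did not separate these genes, since 58 of the 62 had it in villi and 58 in crypts. Promoter H3K27me3 was called at 2 of the 62 in each, against 16.8% of all coding genes in villi and 13.7% in crypts.

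Xenobiotic genes had 17 villi-only, 50 shared and 7 crypts-only peaks, among them Abcg2, an efflux pump, with 4, 11 and 0, Cyp3a13 with 3, 5 and 0 and the carboxylesterase Ces2a with 3, 8 and 1. The 30 intestinal transcription factors went the other way in number of genes: 65 villi-only and 71 crypts-only peaks, with more villi-only peaks at 6 genes and fewer at 16. Beside Maf and Klf4, Klf3 had 6 villi-only, 37 shared and no crypts-only peaks. Klf5, a factor of dividing crypt cells, had 7, 36 and 13, Gata6 6, 24 and 12, and Prdm1 4, 15 and 5. The 23 genes of stem and dividing crypt cells had 20 villi-only, 178 shared and 72 crypts-only peaks, so that villi-only peaks were 21.7% of those of 1 compartment. At least 1 villi-only peak was nearest to 15 of the 23, but 3 or more to Olfm4 and Sox9 alone. Olfm4, a stem cell marker with promoter H3K4me3 in crypts alone, had 3 villi-only and 2 crypts-only peaks, but its villi-only peaks lay from 83.1 to 1824 kb away. Lgr5, the stem cell receptor, had 1 and 1. In the BMP and Hedgehog list (15 villi-only, 124 shared and 18 crypts-only peaks), Smad7, an inhibitor of TGF-β and BMP signalling, had 5, 23 and 1, Id2 4, 23 and 4 and Smad6 3, 11 and 0.

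Markers of cells other than enterocytes were checked in the same way, to be read against the 24.0% and 20.1% of all coding genes with a villi-only and a crypts-only peak. Paneth cell genes had 2 villi-only, 10 shared and 7 crypts-only peaks (1 and 4 of 8 genes had a villi-only and a crypts-only peak). Goblet cell genes had 3, 26 and 8 (25.0% and 33.3% of genes), and tuft cell genes 0, 15 and 1. Enteroendocrine genes had 6, 23 and 2 (29.4% and 11.8%), and the 6 were 20.7% of their distal villi peaks. Mesenchymal, muscle and endothelial genes had 4, 37 and 9 (17.6% and 29.4%). Of 24 genes of intraepithelial lymphocytes, 13 had promoter H3K4me3 in villi and 3 in crypts, against 59.3% and 59.1% of all coding genes. It was called in villi alone at 10 of the 24, Cd3e, Cd3g, Cd8a and Gzma among them, against 1.30% of all coding genes. Those same 24 genes had 5 villi-only, 25 shared and 8 crypts-only distal H3K4me1 peaks (20.8% and 29.2% of genes). The 5 villi-only peaks were at Gzmb, Ccr9, Runx3, Thy1 and Ccl5, 1 each, and the CD3 and CD8 genes Cd3d, Cd3e, Cd3g, Cd8a and Cd8b1 had 0. Other leukocyte genes had 8, 20 and 6 (38.5% and 15.4%), and the 8 were 28.6% of their distal villi peaks, against 24.3% at absorptive genes. Of these 8, 3 were at Irf8, an interferon regulatory factor, 2 at Csf1r, the macrophage growth factor receptor, with a highest score of 22.5, and 1 each at Adgre1, Itgam and Spi1. Promoter H3K4me3 was called at 2 of these 13 genes in each compartment, Irf8 among them, and at none of the other 4 named. In these bulk libraries, fewer cells of a type and less mark per cell cannot be told apart. The paper reports that H3 tails are cleaved in villi and that H3K4me1 and H3K4me3 signal is lower there. The part of that cleavage in these calls was not tested.

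**Figure D4:**
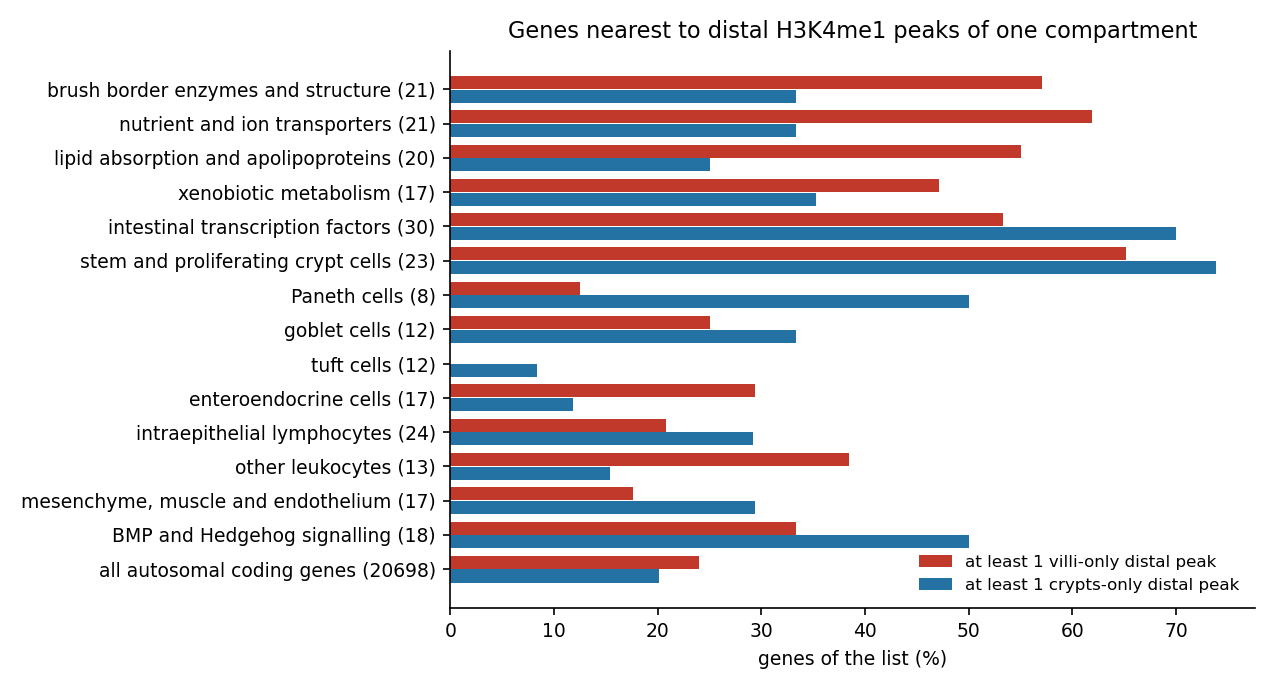
Share of the genes of each list (%, x axis; number of autosomal genes in brackets) that are the nearest coding gene of at least 1 villi-only (red) or crypts-only (blue) distal H3K4me1 peak. Brush border, transporter and lipid genes have longer red than blue bars (57.1 against 33.3%, 61.9 against 33.3% and 55.0 against 25.0%), and stem cell genes the reverse (65.2 against 73.9%).

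The nearest genes of villi-only peaks mostly had an H3K4me3 promoter, as those of the other sets did. Promoter H3K4me3 of villi was called for the nearest gene of 82.3% of villi-only peaks (81.5 to 83.2%), 83.3% of shared (82.9 to 83.7%) and 79.7% of crypts-only peaks (78.7 to 80.6%), against 59.3% of all autosomal coding genes. It was present in both compartments for 81.2% of villi-only peaks, in villi alone for 97 peaks (1.19%) and in crypts alone for 68 (0.838%). Around the 270 genes with promoter H3K4me3 in villi alone, there were 97 villi-only and 76 crypts-only peaks, and 56.1% of these were villi-only (48.6 to 63.3%). Around the 221 genes with it in crypts alone there were 68 and 115, and the share was 37.2% (30.5 to 44.4%). For genes with promoter H3K4me3 in both compartments it was 55.0% (54.1 to 55.8%). Promoter H3K27me3 in villi was called for the nearest gene of 16.1% of villi-only (15.4 to 17.0%), 14.7% of shared (14.3 to 15.1%) and 19.8% of crypts-only peaks (18.9 to 20.8%), against 16.8% of all autosomal coding genes.

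Of 14 motifs compared in the central 500 bp, AP-1 showed the largest excess in villi-only peaks over both other sets. The motif TGANTCA, on either strand, was in 1713 of 8118 villi-only windows (21.1%, 20.2 to 22.0%). It was in 17.0% of shared (16.6 to 17.5%) and 15.9% of crypts-only windows, and in 17.9% of all distal villi windows. The difference from crypts-only peaks was 5.22 percentage points (Newcombe interval 3.98 to 6.46) and from shared peaks 4.05 points (3.08 to 5.05). The villi-only share was the higher on 19 of 19 autosomes against each set. It was also higher in 18 of 18 strata of place, distance, score, width, GC and gap against crypts-only peaks, and in 15 of 15 against shared peaks. With its letters in reverse order the motif was in 13.6%, 13.5% and 14.2% of the windows. Most of the difference was in the form with C or G in the middle, which was in 15.2% of villi-only, 11.6% of shared and 10.1% of crypts-only windows (9.41 to 10.8%). With A or T in the middle it was in 7.05%, 6.27% and 6.51%. Over whole peaks, where shared peaks are the wider, the AP-1 difference from shared peaks turned to -13.0 points. A match is a description of letters and not evidence of binding. The central 200 bp of villi-only peaks with AP-1 matches are shown for 2 of the highest-scoring ones, at Chtf8 (score 33.0) and Tom1l2 (29.7), chosen after the motif shares were seen, with the matches in capitals.
Chtf8, chr8:106888931-106889130: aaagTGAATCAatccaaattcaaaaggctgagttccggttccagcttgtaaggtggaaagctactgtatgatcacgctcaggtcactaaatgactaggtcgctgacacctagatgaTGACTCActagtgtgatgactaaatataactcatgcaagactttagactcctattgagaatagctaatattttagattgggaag
Tom1l2, chr11:60240682-60240881: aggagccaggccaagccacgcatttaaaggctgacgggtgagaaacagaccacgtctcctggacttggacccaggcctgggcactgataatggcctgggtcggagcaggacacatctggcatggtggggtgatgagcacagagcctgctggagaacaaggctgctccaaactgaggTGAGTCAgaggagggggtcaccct

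The motifs of intestinal factors differed less or in the other direction. The HNF4 specific motif was in 2.89% of villi-only windows (2.55 to 3.28%), 2.44% of shared (2.27 to 2.62%), 2.47% of crypts-only (2.13 to 2.87%) and 2.53% of all distal villi windows. Its reversed letters were in 0.530% of villi-only windows. The difference from shared peaks was 0.456 points (0.0699 to 0.877) and that from crypts-only peaks 0.421 points (-0.102 to 0.937), an interval that includes 0. The difference from shared peaks turned to -0.256 points in the top 50% of the villi list and to -2.52 over whole peaks. The DR1 motif was in 3.46% of villi-only, 2.70% of shared, 2.87% of crypts-only and 2.86% of all distal villi windows, and both intervals were above 0 (0.344 to 1.22 points and 0.0292 to 1.15), but over whole peaks the difference from shared peaks turned to -2.56 points. The DR1 difference from crypts-only peaks was 0.594 points. Across the alternatives it ran from 0.188, with villi-only peaks alone cut to the top 50%, to 0.932, with close peaks merged. GATA matches were in 28.8% of villi-only, 29.8% of all distal villi and 34.9% of crypts-only windows. The villi-only share was lower on 18 of 19 autosomes, but the reversed letters also differed, 21.1% against 24.1%. The CDX motif CCATAAA (8.13% against 9.49%), the FOXA motif TGTTTAC (7.67%), the TCF/LEF motif CTTTGAT (9.25%) and the ETS motif AGGAAGT (15.2% against 17.5%) were also less frequent than in crypts-only windows, with intervals below 0. For TCF/LEF the reversed letters differed as much as the motif, by -1.02 and -1.01 points. In all distal villi windows these were found in 8.45%, 8.12%, 9.50% and 15.9%. For the KLF motif CCNCACCC, the RUNX motif TGTGGTT, the E-box CAGCTG, the NR5A2 and ESRR motif TCAAGGTCA, the SOX motif ACAATGG and the POU motif ATGCAAAT, found in 20.1%, 11.1%, 26.3%, 1.81%, 6.66% and 2.78% of all distal villi windows, the intervals of the difference from crypts-only windows included 0. No motif contains another, although the DR1 motif and that of NR5A2 and ESRR end in the same letters AAGGTCA. The plot of motif differences gives the 14 motifs with their reversed letters.

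**Figure D5:**
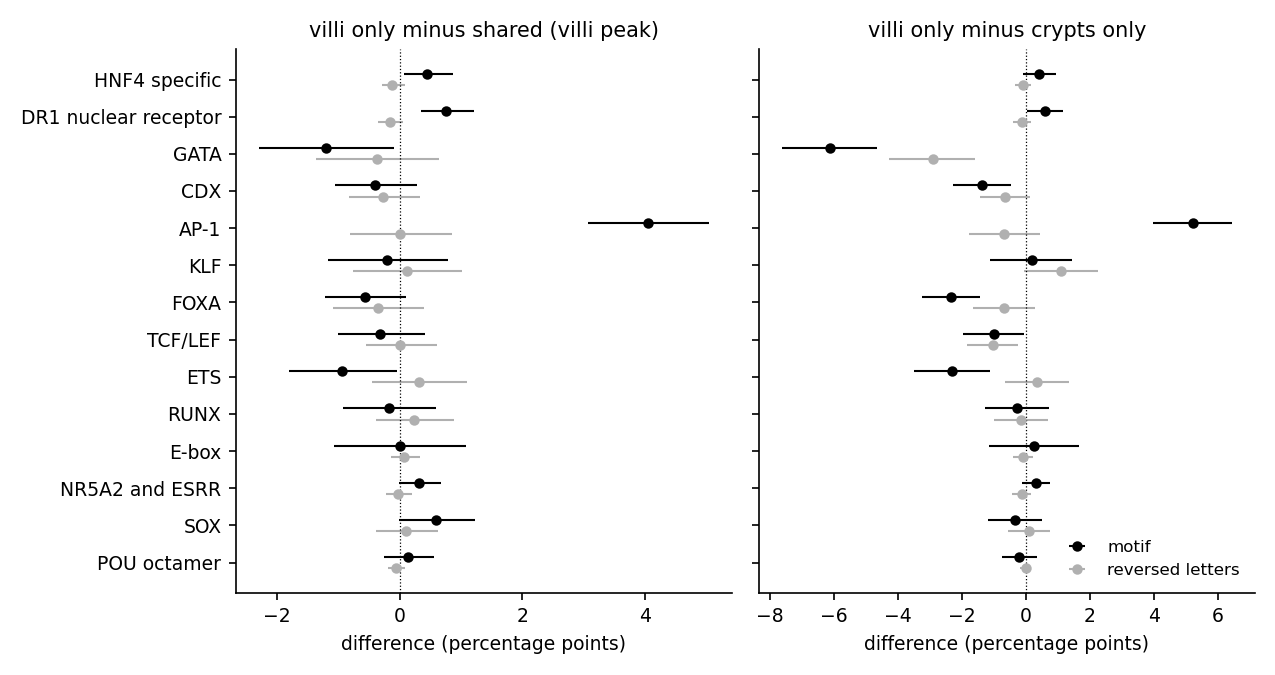
Difference in the share of 500 bp windows with a motif (x axis, percentage points), villi-only minus shared peaks (left) and villi-only minus crypts-only peaks (right), for 14 motifs (black) and the same letters in reverse order (grey). Points are differences and lines are 95% Newcombe intervals for counting error: AP-1 is the motif farthest above 0 in both panels (4.05 and 5.22 points), and its reversed letters are near 0.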

How the data were processed

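Peak lists of 10 ChIP-Rx libraries (5 marks in villi and in crypts, 1 library each) were used out of 12 libraries, and the 2 inputs were not used. The authors mapped reads with Bowtie 1.1.2 (mm10 and Drosophila), removed duplicates and called peaks with MACS2 2.1.1. The paper's account of peak calling does not name H3K9me2 and does not say whether an input was used. The deposited lists have no header, and their value per peak, nowhere below 10.00, was read as −log10 of MACS2's p-value. It grows with sequencing depth, which is unknown since no read counts were given, and spike-in scaling plays no part in peak calls. Levels of it were therefore compared within a list only, although equal score classes were among the strata in which villi-only and crypts-only peaks were compared.

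Overlaps of 1 bp, gaps, nearest start sites and motif matches were computed with Python 3.11.15, NumPy 2.4.6 and pandas 2.3.3, tested on simulated peaks and checked against bedtools 2.31.1. Figures were drawn with Matplotlib 3.10.9. Genes came from GENCODE M21 and sequence from the RefSeq copy of GRCm38, and each peak on an autosome lay within its length. Promoters were 1 kb on either side of a coding start site. Motifs were searched in 500 bp at the peak midpoint. The results of 1 further motif are not reported here. Wilson and Newcombe intervals are at 95%. No test was made between groups of 1 library. Named genes were the 10 nearest to the most villi-only peaks, those nearest to the 10 highest scores with ties, and genes of 14 lists (253 genes, of which 1 Paneth cell gene was not found) with 3 or more, the absorptive and stem cell lists also by count. Some further genes were named after their values were seen. Sequences followed the highest scores with a motif, none from chromosome 18. Members and lists were chosen with earlier results of these data known. Alternatives covered the overlap rule, the score, merging, the start-site window, the annotation, the overlap with other marks, the nearest-gene rule and the motif window.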

Additional observations from a re-analysis of the deposited data

How the results depend on the processing

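No paired analysis was possible because there was 1 library per group. The number of villi-only peaks stayed within 1.5 times of 8118 under each alternative but the top 50% of the villi list, which by construction left 1080 peaks, 9 absorptive genes with at least 1 of them, 5.37% with villi H3K4me3, a median distance of 16346 bp and the HNF4 motif in 2.22%. The villi H3K4me3 share of 3.24% became 4.31% when a villi peak counted as villi-only unless a crypts peak covered 50% of it, and 2.87% when no crypts peak lay within 1 kb. Under the latter rule the median distance was 18957 bp and the share of nearest genes with villi promoter H3K4me3 was 81.3%. With peaks under 1 kb apart merged these were 19702 bp and 80.6%. With distal set at 5 kb, the H3K27me3 and H3K4me3 shares were 3.53% and 2.52% and the median distance 23743 bp. With start sites of all genes the shares were 3.76% and 2.58%, and with 50% of the peak covered by the other mark 3.76% and 2.41%. By gene body, 83.6% of nearest genes had promoter H3K4me3. The HNF4 motif was in 2.03% of windows of 300 bp, in 4.31% of whole peaks and, in an alternative chosen after seeing the data, in 0.530% with its letters reversed. Also chosen afterwards were the 500 bp window for H3K27me3 (4.16%), the middle base of AP-1 and leaving out rRNA genes.

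Against shared peaks, the differences in HNF4, DR1 and AP-1 motifs reversed over whole peaks (-2.52, -2.56 and -13.0 points), where shared peaks are wider, and in the top 50% the HNF4 difference was -0.256 points from shared peaks, cut in the same way, and -0.252 from crypts-only peaks, which were not cut. The cause of the last 2 was not tested. The direction of the AP-1 difference from crypts-only peaks was the same in each alternative run. Unknown depth limits these results: a villi-only peak is one not called in crypts, and not one shown to lack the mark there.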
